A study of Arabidopsis thaliana with 6 samples.

Results

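ATG3 and the 9 members of the ATG8 family, ATG8A to ATG8I, were examined in dark-grown Arabidopsis thaliana seedlings of the pif1-2 mutant and of the wild type. The genes were chosen by symbol in the annotation of the array's probe sets, which gave 8 of the 10 directly. ATG8A and ATG8I are listed there under the older symbols APG8A and APG8H, and were matched through the synonyms of the RefSeq gene table. All 10 genes had 1 probe set each, among 13356 genes with a single-gene probe set on the array, and all 10 passed the filter on low signals.

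Autophagy encloses portions of cytoplasm, organelles or protein aggregates in a membrane vesicle, the autophagosome, and delivers them to the vacuole for breakdown and reuse. ATG8 is a small ubiquitin-like protein that is attached to the lipid phosphatidylethanolamine of the growing vesicle, where it helps the membrane expand and binds cargo receptors. The attachment runs like ubiquitin transfer: the protease ATG4 trims the ATG8 tail, ATG7 activates it and ATG3, the E2-like enzyme, passes it to the lipid. Plants use autophagy to recycle nutrients when carbon runs short, and a seedling in darkness lives on the reserves of its seed.

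The groups were pif1-2 (3 arrays) and wild type (Wt, col-o in the labels; 3 arrays). Both were whole seedlings grown on MS medium for 4 days in the dark at 21 °C, after a cold treatment of 4 days and 1 hour of light to start germination. PIF1 is a basic helix-loop-helix factor that binds phytochrome and restrains germination and chlorophyll synthesis in darkness. The mutant is represented by 1 insertion allele, in which PIF1 mRNA is very low according to the labels, and etiolated wild-type seedlings are described there as about 2 mm taller. The series title gives At2g20810 as the mutated locus, whereas the RefSeq table lists PIF1 at AT2G20180. Neither locus had a named probe set, so the genotype rests on the labels.

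RNA of each sample was hybridised to an Affymetrix ATH1 array, in which a set of short probes reports 1 transcript as a MAS5 signal, a linear intensity. The median deposited signal was 184.1 to 198.8 over the 6 arrays. Probe sets bind with different strength, so the signals below are compared between genotypes for each gene and not between genes. On the first principal component (26.9% of the variance) pif1-2 replicate 3 scored 47.9, away from the -13.2 to -5.23 of the other arrays. The second (23.5%) spread the arrays from -27.4 to 30.9. On the third (22.5%) pif1-2 replicate 2 scored 42.6, away from the -17.8 to -1.97 of the other arrays. The actin 3-prime to 5-prime signal ratio of pif1-2 replicate 3 was 8.07 against 3.53 to 5.17 on the others. Its GAPDH ratio was 1.32, inside the 1.2 to 1.34 of the others. Of the tissue markers looked up, PORB, a protochlorophyllide oxidoreductase of dark-grown seedlings, had signals of 4898.1 to 9170.9 in pif1-2 and 8378.5 to 10713.8 in wild type. The root markers EXPA7, EXPA18 and AT1G30870 had signals of 91.1 to 382.1 in pif1-2 and 51.7 to 446.8 in wild type, and the other 3 etiolated-seedling markers, 3 seed markers and 2 flower markers had no named probe set in the annotation used here. Whole seedlings mix organs, so that fewer cells of a type and less RNA per cell cannot be told apart.

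All 10 genes gave clear signals in both genotypes, the lowest on any array being 459.5 for ATG8G against the low-signal limit of 50. None passed an adjusted p of 0.05 in the limma fit over all 17695 probe sets tested, in which 2 passed in all (0.0113%). The adjusted p-values of the 10 ranged from 0.586 to 0.981. At an unadjusted limma p under 0.05, ATG8B and ATG3 had a larger signal in pif1-2 and 0 of the 10 a smaller one. Of all probe sets tested, 7.67% reached that level, 3.31% with a higher signal in pif1-2 and 4.36% with a lower one. The log2 fold change, pif1-2 minus wild type, was above 0 for 8 of the 10, beside 50.1% of all probe sets tested. Its median was 0.11 for the 10 genes (0.071 with quantile normalization) and 0.00095 for all probe sets tested. The 95% intervals of the 10, not adjusted for the number of genes, reached no lower than a ratio of 0.727 and no higher than 1.61.

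**Figure D1:**
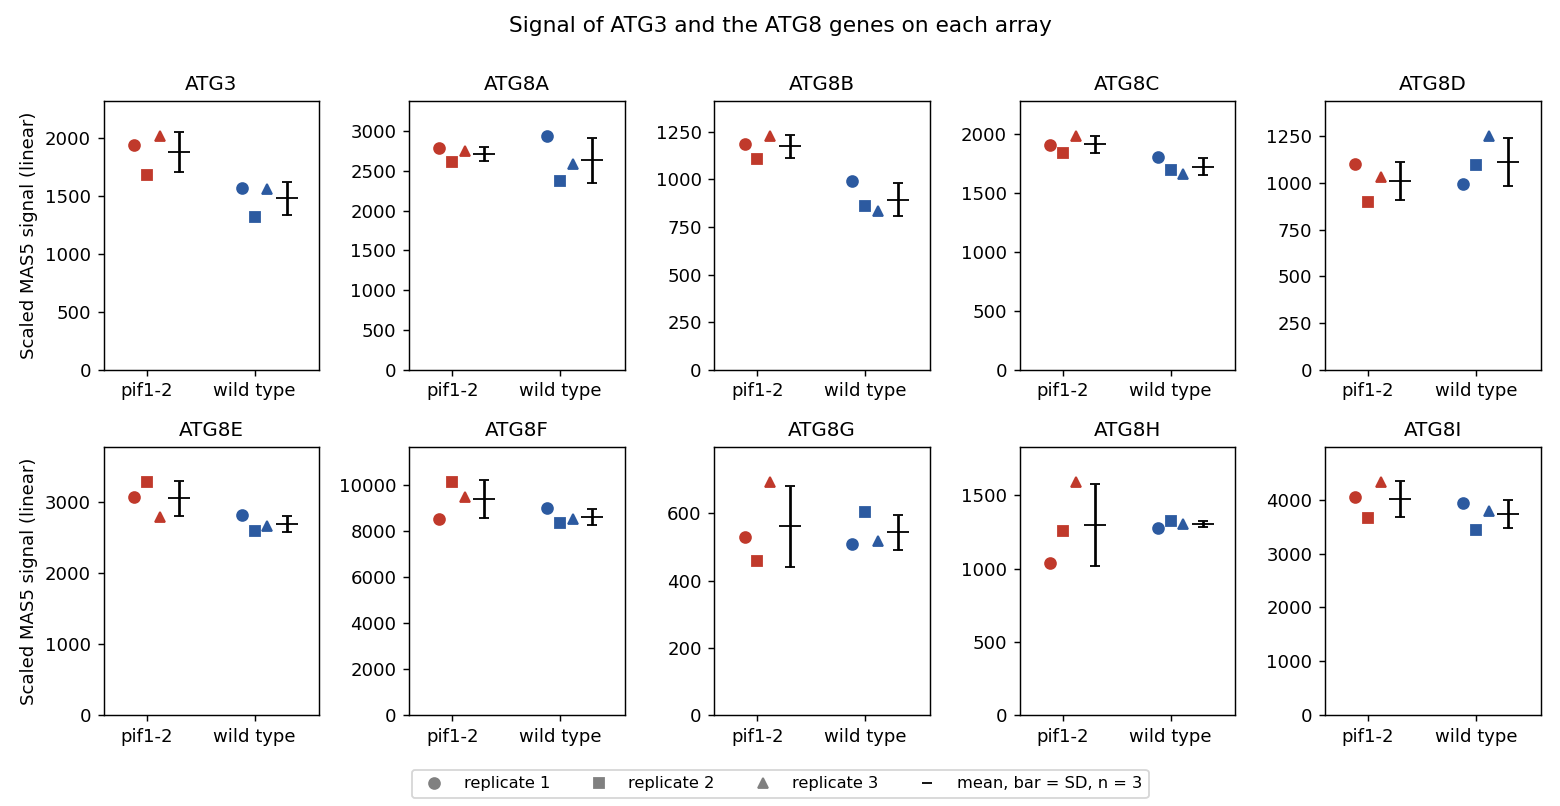
Scaled MAS5 signal (linear axis from 0, a separate scale for each gene) of the 10 genes on the pif1-2 arrays (red) and the wild-type arrays (blue), with mean and SD (n = 3). The pif1-2 points lie above all wild-type points for ATG3, ATG8B and ATG8C, and the genotypes overlap for the other 7 genes.

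ATG3 encodes the E2-like enzyme on which the lipid attachment of every ATG8 depends. Its signals were 1937.4, 1681.1 and 2014.1 on the pif1-2 arrays, against 1563.5, 1316.5 and 1559.8 on the wild-type arrays. All 3 pif1-2 arrays were above all 3 wild-type arrays, and replicate 2 was the lowest array of each genotype. The means were 1877.5 ± 174.4 in pif1-2 and 1479.9 ± 141.6 in wild type (SD, n = 3 each), a log2 fold change of 0.34 (SE 0.14, 95% interval 0.035 to 0.65). It did not pass over all probe sets (limma p = 0.0319, adjusted p = 0.637), and the exact two-sided permutation test gave 0.1, the smallest p that 3 arrays against 3 allow. Without wild type replicate 2 the log2 fold change was 0.26, and without pif1-2 replicate 3 it was 0.29. In both cases, and without pif1-2 replicate 1 (0.32), its unadjusted p was no longer under 0.05.

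ATG8A to ATG8D form a branch of the plant ATG8 family whose members carry extra residues after the glycine that ATG4 exposes. ATG8B had the largest difference of the 10 genes, with signals of 1186.4, 1103.6 and 1226.1 in pif1-2 and 991.1, 857.5 and 830.9 in wild type. The genotypes did not overlap, and the lowest pif1-2 array stood above wild type replicate 1, the highest of its group. The mean was 1172 ± 62.5 in pif1-2 against 893.2 ± 85.8 in wild type (SD, n = 3 each), 31.2% more, with a log2 fold change of 0.39 (SE 0.14, 95% interval 0.087 to 0.69). It too missed the threshold over all probe sets (limma p = 0.0159, adjusted p = 0.586; exact permutation p = 0.1). The log2 fold change stayed between 0.34 and 0.46 when any 1 array was left out, and the unadjusted p was no longer under 0.05 once replicate 2 or replicate 3 of wild type was missing.

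ATG8C was the third gene without overlap, at 1907.6, 1840.6 and 1980 in pif1-2 and 1800.2, 1695.4 and 1662.3 in wild type. Its arrays were close together in both genotypes, and the gap between the lowest pif1-2 array and wild type replicate 1 was small. The log2 fold change was 0.15 (SE 0.13, 95% interval -0.12 to 0.42, limma adjusted p = 0.831), and it was 0.12 to 0.18 without any 1 array. Thus 3 of the 10 genes lay wholly above wild type, ATG3, ATG8B and ATG8C, where 6.49% of all probe sets tested did so, and 0 of the 10 lay wholly below, where 6.58% did (13.1% without overlap in either direction).

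ATG8A had signals of 2779.1, 2614.9 and 2750.9 in pif1-2 and 2934.2, 2375.2 and 2587.7 in wild type. The pif1-2 arrays fell inside the range of wild type, and the log2 fold change of 0.049 (SE 0.13, 95% interval -0.24 to 0.34) ran from -0.022 without wild type replicate 2 to 0.13 without wild type replicate 1. ATG8D had the most negative log2 fold change of the 10, with 1102.4, 899.3 and 1032.8 in pif1-2 against 996, 1097.2 and 1251.5 in wild type. The genotypes overlapped, and the log2 fold change of -0.14 (SE 0.15, 95% interval -0.46 to 0.19, limma adjusted p = 0.873) ran from -0.21 without wild type replicate 1 to -0.052 without wild type replicate 3.

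ATG8E, ATG8F and ATG8G form a further branch, whose tails are likewise trimmed by ATG4. ATG8E had signals of 3076.8, 3287.3 and 2794.2 in pif1-2 and 2813.9, 2594 and 2664.4 in wild type. Replicates 1 and 2 of pif1-2 stood above every wild-type array, and replicate 3 fell just under wild type replicate 1. Its log2 fold change was 0.18 (SE 0.13, 95% interval -0.10 to 0.46), and it was 0.12 when pif1-2 lacked replicate 2 and 0.24 when it lacked replicate 3. ATG8F was measured at 8504.9, 10123.9 and 9454.8 in pif1-2 and at 8988.5, 8343.7 and 8484.6 in wild type. Again 2 pif1-2 arrays lay above all of wild type, here replicates 2 and 3, and the log2 fold change was 0.12 (SE 0.12, 95% interval -0.15 to 0.38). It was 0.054 with quantile normalization and 0.19 without pif1-2 replicate 1.

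ATG8G, the gene of that branch with the widest spread between arrays, had 530.8, 459.5 and 693.6 in pif1-2 and 509.7, 602.7 and 517.9 in wild type. The pif1-2 group held both the highest and the lowest array. The log2 fold change of 0.029 (SE 0.17, 95% interval -0.35 to 0.41) was -0.13 without pif1-2 replicate 3 and 0.16 without pif1-2 replicate 2, so that single arrays set its sign.

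ATG8H and ATG8I are the branch whose proteins already end at the glycine, so that they can be attached to lipid without trimming. ATG8H had signals of 1039.8, 1256 and 1592.2 in pif1-2 and 1279, 1326.3 and 1305.8 in wild type. The wild-type arrays were nearly equal, with an SD of 23.7, whereas the pif1-2 arrays lay on both sides of them, with an SD of 278.4. In log2 values the SD was larger in pif1-2 for 5 of the 10 genes, beside 57% of all probe sets tested. The log2 fold change of ATG8H was -0.03 (SE 0.16, 95% interval -0.38 to 0.32). It was -0.19 without pif1-2 replicate 3 and 0.12 without pif1-2 replicate 1. ATG8I was measured at 4039.3, 3656.3 and 4331.7 in pif1-2 and at 3942.6, 3436.9 and 3795.5 in wild type. Its genotypes overlapped, with a log2 fold change of 0.10 (SE 0.13, 95% interval -0.18 to 0.39) that was 0.047 when pif1-2 lacked replicate 3 and 0.17 when it lacked replicate 2.

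**Figure D2:**
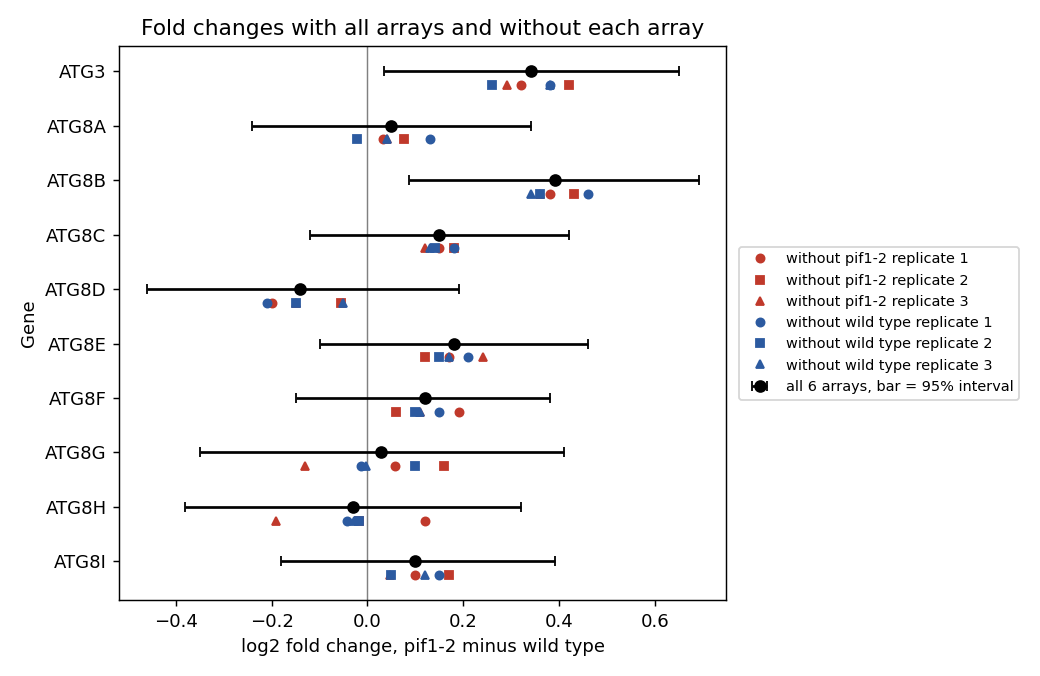
log2 fold change (pif1-2 minus wild type) of each gene with all 6 arrays (black, bar = 95% interval from limma) and without each array in turn (coloured). The intervals of ATG3 and ATG8B start above 0 and the other 8 hold 0, and the points without 1 array fall on both sides of 0 for ATG8A, ATG8G and ATG8H.

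**Figure D3:**
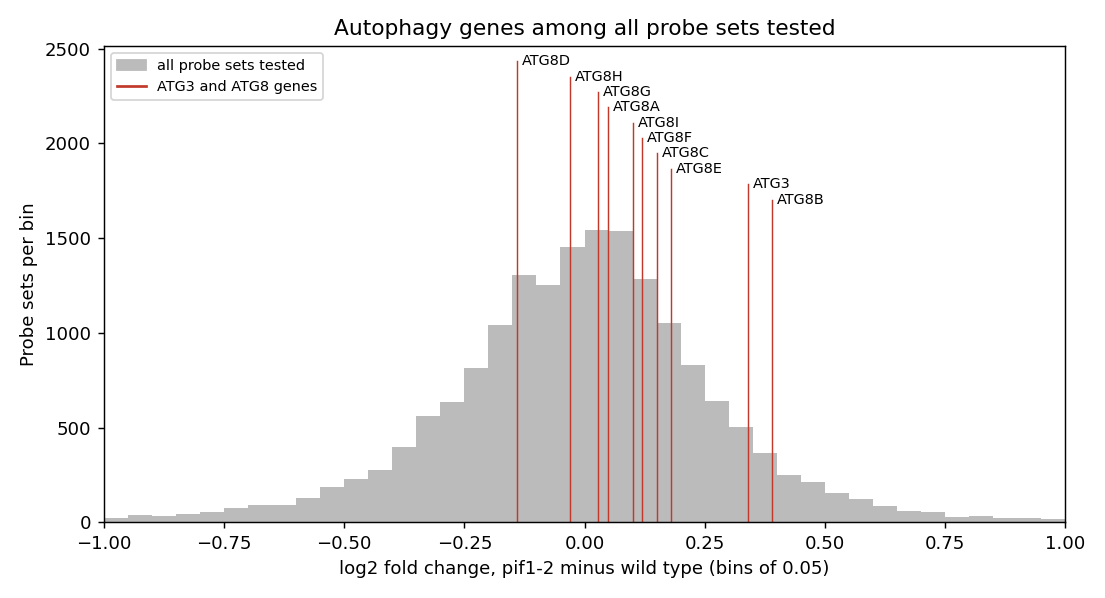
Number of probe sets per bin of log2 fold change (pif1-2 minus wild type) among the 17695 tested, of which 153 lie beyond the plotted range, with a red line at the value of each of the 10 genes. ATG8B at 0.39 and ATG3 at 0.34 lie on the right flank, and the other 8 lie between -0.14 and 0.18.

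These genes also varied between arrays of the same genotype. Relative to the wild-type mean, the median log2 difference of the 10 genes was 0.10, 0.047 and 0.21 on the pif1-2 arrays, against 0.066, -0.048 and -0.016 on the wild-type arrays. The array of pif1-2 replicate 2 thus lay below wild type replicate 1. The array of pif1-2 replicate 3 had the highest actin ratio (8.07) but not the highest GAPDH ratio (1.32). It held the highest signal for 6 of the 10 genes (ATG3, ATG8B, ATG8C, ATG8G, ATG8H and ATG8I), beside 19% of all probe sets tested. The array of wild type replicate 2 held the lowest for 5 of the 10, compared with 13.6% of all probe sets tested. Without pif1-2 replicate 3 the median log2 fold change of the 10 genes was 0.078, with 3 below 0. The count below 0 was also 3 on leaving out any 1 wild-type array. It was 1 without pif1-2 replicate 1 and 2 without pif1-2 replicate 2. The part of RNA quality in these differences was not tested.

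The members differed in which arrays stood out. ATG3, ATG8B, ATG8C, ATG8G and ATG8I were highest on replicate 3 and lowest on replicate 2 among the pif1-2 arrays, an arrangement found in 16.2% of all probe sets tested. ATG8E and ATG8F instead were highest on pif1-2 replicate 2. Among the 45 pairs of members, the profiles over the 6 arrays were closest for ATG8C and ATG8I, whose log2 values, each centred on its own mean, differed by a root mean square of 0.0685. They were farthest apart for ATG8B and ATG8D, at 0.316, although both belong to the same branch.

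**Figure D4:**
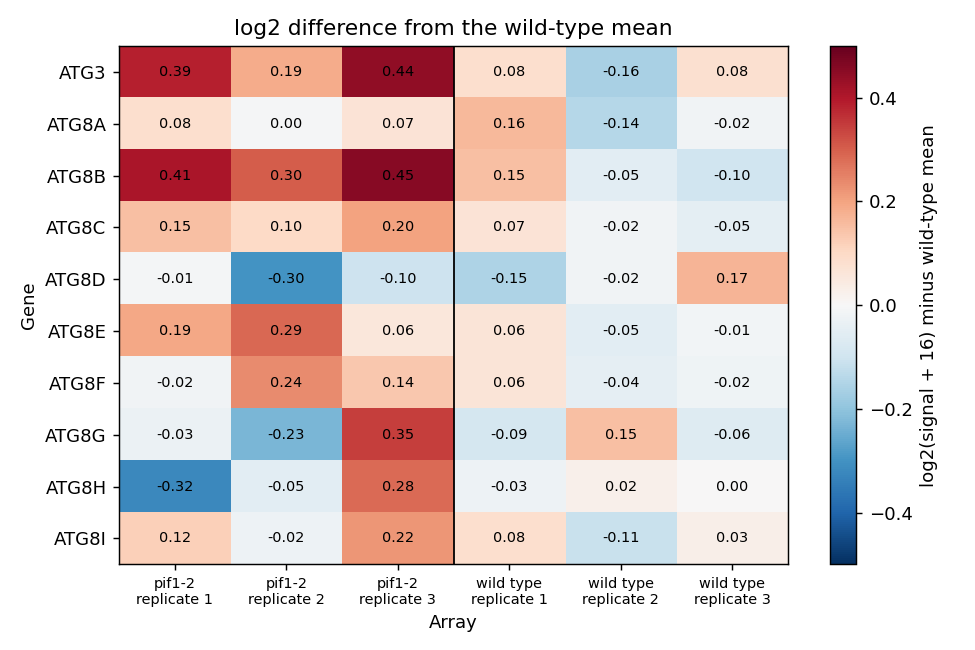
log2(signal + 16) of each gene (rows) on each array (columns) minus the mean of the 3 wild-type arrays, with pif1-2 left of the black line. ATG3, ATG8B, ATG8C and ATG8E are above 0 on all pif1-2 arrays, ATG8D is below 0 on all of them, and ATG8A, ATG8F, ATG8G, ATG8H and ATG8I lie on both sides of 0.

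ATG3 and ATG8H had the widest range over the arrays, 0.607 in log2 for each, and the genes of most similar profile were sought for them among 9874 other genes tested. For ATG3 these were the loci AT3G11930, AT1G26580 and AT5G56880, with a root mean square difference of 0.0326, 0.0376 and 0.0507 in log2. AT3G11930 had signals of 4237.5, 3867.5 and 4680.3 in pif1-2 and 3600.3, 3094.7 and 3530.2 in wild type. Like ATG3, it was lowest on replicate 2 in each genotype. For ATG8H the closest were AT3G09500, AT3G09735 and AT2G25910, at 0.038, 0.0415 and 0.0453. AT3G09500 had 3722.4, 4164.6 and 5404.4 in pif1-2 and 4543.4, 4500.2 and 4541.8 in wild type, with the same near-equal wild-type arrays as ATG8H. All these genes were picked for their likeness over 6 arrays, so the shared patterns follow from the search. How close a match a search of 9874 unrelated genes would give was not tested.

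Of 54 other genes of the autophagy pathway and its control, listed by locus, 15 had a named probe set and all 15 were tested. None passed the threshold with limma. At an unadjusted limma p under 0.05 there was 1 gene of the 15 with a lower signal in pif1-2 and 0 with a higher one. Of all probe sets tested, 4.36% were lower and 3.31% higher at that level. A log2 fold change below 0 was found for 10 of the 15, beside 49.9% of all probe sets tested. Their median log2 fold change was -0.077. The 10 listed genes for ATG2, ATG9 and the ATG18 proteins, which supply membrane to the growing autophagosome, had 0 named probe sets.

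ATG101, a subunit of the kinase complex that starts autophagosome formation, had signals of 1246, 1062.5 and 1345.2 in pif1-2 and 1210.4, 1208.8 and 1208.3 in wild type. As for ATG8H, the wild-type arrays were nearly equal and the pif1-2 arrays lay on both sides of them (log2 fold change 0.0036, SE 0.14). A larger SD of log2 values in pif1-2 was found for 57% of all probe sets tested. RAPTOR1 and RAPTOR2 encode partners of the TOR kinase, which holds autophagy back when nutrients are plentiful. RAPTOR2 was dim, at 27.4, 72.5 and 55.9 in pif1-2 and 75.5, 78.3 and 83.3 in wild type. All its pif1-2 arrays lay below wild type (log2 fold change -0.54, SE 0.38; adjusted p = 0.795 with limma), while those of RAPTOR1 overlapped wild type (-0.072, SE 0.22).

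Vacuolar processing enzymes are proteases of the compartment where autophagic cargo ends. GAMMA-VPE averaged 5092.6 ± 657.2 in pif1-2 and 5450 ± 825.6 in wild type (SD, n = 3 each; log2 fold change -0.095, SE 0.15), and ALPHA-VPE 104.4 ± 21.5 in pif1-2 and 133.6 ± 48.3 in wild type (-0.28, SE 0.28). The other 10 loci carry no symbol in the tables used here. Among them AT1G49180 had the unadjusted p under 0.05, with signals of 18.5, 33.1 and 119.2 in pif1-2 and 125.5, 109.2 and 99.6 in wild type. Replicate 3 of pif1-2 fell among the wild-type arrays (log2 fold change -1.05, SE 0.46, limma adjusted p = 0.637; exact permutation p = 0.3). That count of 1 held without pif1-2 replicate 3 and became 0 on leaving out any of the other arrays, with no filter and with no intensity trend. It was also 0 with a filter at 100, which left AT1G49180 itself out of the test. AT5G50230, AT2G32760 and AT4G34660 had log2 fold changes of 0.12, 0.17 and 0.052.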

How the data were processed

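The deposited intensity of each probe set is a linear MAS5 signal, as the submitters' processing notes name that method without a version. The arrays came scaled by the authors, since the 2% trimmed mean of the deposited values was 500 on each. Here 64 control probe sets were left out of 22810, arrays were rescaled to that mean, 5051 probe sets with a mean under 50 were dropped and log2(signal + 16) was taken, so a fold change is on that scale. Groups, taken from the sample titles because another label field numbers the allele upwards from sample to sample, were set against each other in R 4.3.3 by limma 3.58.1 (intensity trend, two-sided, Benjamini-Hochberg over 17695 probe sets, threshold 0.05). The fit was tested on simulated data.

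The platform annotation names 1 gene for 13513 probe sets and leaves 8730 unlisted. Of the former, 13436 matched RefSeq TAIR10.1, used for names only. The members and lists were chosen with earlier results of these data known. Every member is named, and from each role of the pathway list the genes at an unadjusted p under 0.05 or, failing that, the one of smallest p. ATG101, RAPTOR1, GAMMA-VPE and the pattern counts over arrays were added after their values were seen. The labels call the replicates biological without saying whether they were separate cultures, so a p-value covers only the spread between these samples, which may be technical, and the number of arrays limits the precision.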

Additional observations from a re-analysis of the deposited data

How the results depend on the processing

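Under 17 alternatives (pseudocounts of 1 and 64, a floor, 3 other scalings, 2 other filters, no intensity trend, array weights, a replicate block and each array left out) 0 of the 10 genes and 0 of the 15 other autophagy genes passed the threshold with limma. Of the 15, AT1G49180, AT3G18770 and RAPTOR2 were not tested with the filter at 100. Over all probe sets the calls numbered 2, against 1 with median centring, quantile normalization, no filter or no trend, 8 with array weights, and 0 to 7 without 1 array. With the replicate number as a block the fit gave 45 calls, none of them among the 10 genes (adjusted p = 0.268 to 0.969). Deviations of same-numbered arrays correlated at 0.25, 0.10 and 0.088 across probe sets, and each array correlated best with its own number among those of the other genotype, a hint from the data and not from the design. The median of the 10 genes was 0.071 with quantile normalization and 0.078 to 0.15 without 1 array. It was 0.13 over the 8 genes whose platform symbol matched directly, a setting added after the data were seen. The count at an unadjusted p under 0.05 was 2, but 1 without pif1-2 replicate 1, pif1-2 replicate 3, wild type replicate 3 or the trend, and 0 without wild type replicate 2. Of 170 values of single genes, 164 kept their direction and side of the threshold and 6 changed sign: ATG8A at -0.022 without wild type replicate 2, ATG8H at 0.12 without pif1-2 replicate 1, and ATG8G at -0.052 with array weights, -0.13 without pif1-2 replicate 3, and -0.014 and -0.0026 when wild type lacked replicate 1 or replicate 3. Without 1 array ATG8A ranged from -0.022 to 0.13, ATG8G from -0.13 to 0.16 and ATG8H from -0.19 to 0.12. The cause was not tested. Each gene had 1 probe set, so that a second one could not be compared.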
